A study of Rattus norvegicus with 8 samples.

Results

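The genes described here are 9 brakes on insulin signalling, measured in the livers of diabetic rats fed persimmon peel extract or a control diet. They are the tyrosine phosphatase genes Ptpn1, Ptprf and Ptpn11, the lipid phosphatase gene Inppl1, the adaptor genes Grb10 and Grb14, the pseudokinase gene Trib3, and the cytokine signalling suppressors Socs1 and Socs3. Every probe set that the platform annotation gives to exactly 1 of these genes was taken, which made 18 of the 31042 probe sets other than manufacturer's controls. The persimmon peel group was 4 male Goto-Kakizaki rats that ate AIN-93G, a purified rodent diet, with persimmon peel extract added for 12 weeks. The control group was 4 male rats of the same strain that ate AIN-93G alone over the same time. All 8 rats were 18 weeks old, and each liver was measured on 1 Affymetrix array. Goto-Kakizaki rats are an inbred, non-obese model of type 2 diabetes, so both diets were compared within a diabetic strain.

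Insulin binds a receptor tyrosine kinase on the hepatocyte, which phosphorylates adaptor proteins called IRS, and these start a lipid kinase signal that ends in the kinase AKT. Each of the 9 genes can weaken a step of this chain: phosphatases remove the phosphates, adaptors sit on the receptor kinase, TRIB3 binds AKT, and SOCS proteins block IRS or mark it for degradation. In liver the chain restrains glucose output and drives lipid synthesis, and its weakening is a feature of type 2 diabetes.

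Signals are in MAS5 units, the manufacturer's linear scale, and log2 fold changes are persimmon peel minus control diet. A probe set was tested where its mean log2 signal over the 8 arrays was in the upper 50%, a geometric mean of at least 34.4 units, and the others are called dim. The median signal of the arrays lay between 33.2 and 39.2 units. The 10 tested hepatocyte markers (of 11, with Tf not named on the array) had summed signals of 86730 to 93100 on the persimmon peel diet and 93630 to 100500 on the control diet, and 0 of them passed the test in their brightest set, although these sums did not overlap. In another of its sets 1 of these genes passed as lower. Of the brightest sets 9 of 10 had a negative log2 fold change (median -0.09), against 47.4% of all tested genes. The 10 tested Kupffer cell and macrophage markers (of 12, with Marco and Vsig4 not named) summed to 7138 to 11510 on the persimmon peel diet and 6406 to 8318 on the control diet. The 8 of 10 endothelial markers summed to 4320 to 5491 on the persimmon peel diet and 5135 to 5478 on the control diet. Only 1 of them was called, Fcgr2b, as lower (log2 fold change -0.42, limma adjusted p = 0.009). The log2 fold changes of the 8 were negative in 5 and positive in 3, with a median of -0.04. The 7 of 10 stellate cell markers summed to 933.6 to 1221 on the persimmon peel diet and 980.5 to 1383 on the control diet, with 0 called. Of the cholangiocyte and lymphocyte lists only Epcam and Cd4, 1 gene of each, were bright enough to be tested, and neither was called. Epcam lay at 196.0 to 223.9 on the persimmon peel diet and 161.2 to 234.0 on the control diet, and Cd4 at 50.2 to 74.6 on the persimmon peel diet and 62.5 to 79.9 on the control diet. In whole liver, fewer cells of a type and less RNA per cell cannot be told apart. Beta-actin control sets from the middle and the 3' end of the transcript, whose log2 ratio is a measure of RNA integrity, gave a ratio of -1.06 ± 0.11 on the persimmon peel diet and -0.76 ± 0.02 on the control diet (SD, n = 4 each), with no overlap (exact permutation p = 0.0286, the smallest possible, and 0.0572 after adjustment over 4 ratios). The 5' to 3' ratio of beta-actin was -1.97 ± 0.22 on the persimmon peel diet and -1.69 ± 0.12 on the control diet (SD, n = 4 each; exact permutation, adjusted p = 0.0572). For GAPDH, the middle to 3' ratio was -0.59 ± 0.05 on the persimmon peel diet and -0.58 ± 0.03 on the control diet, and the 5' to 3' ratio -0.43 ± 0.08 on the persimmon peel diet and -0.29 ± 0.10 on the control diet (SD, n = 4 each; exact permutation, adjusted p = 0.857 and 0.114). The part of these ratios and of the cell markers in the values below was not tested.

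None of the 9 genes passed the test between the diets. Of their 18 probe sets, 12 were tested, covering 7 genes, and 0 of the 12 were called by limma at a Benjamini-Hochberg adjusted p under 0.05 over all 15521 tested sets, where 4.95% of all tested sets were called (4.53% with lower and 0.425% with higher signals in the persimmon peel livers). At an unadjusted p under 0.05 there was 1 of the 12 sets, against 19.6% of all tested sets. The log2 fold changes of the 12 sets ran from -0.17 to 0.25, with 8 above and 4 below 0 and a median of 0.13, beside a median of -0.0071 over all tested sets. Their median absolute log2 fold change was 0.150, the same size as that of all tested sets (0.150). In 2 of the 12 sets the 4 persimmon peel livers lay apart from the 4 control livers, while 12.9% of all tested sets lay apart. The other 6 sets, all those of Grb10 and Socs1 and 1 of Ptpn11, were dim, and in a fit with no filter 0 of all 18 were called, against 1.5% of all 31042 sets (2 of 18, 1 set each of Ptprf and Ptpn11, at an unadjusted p under 0.05, against 13.4%).

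**Figure D1:**
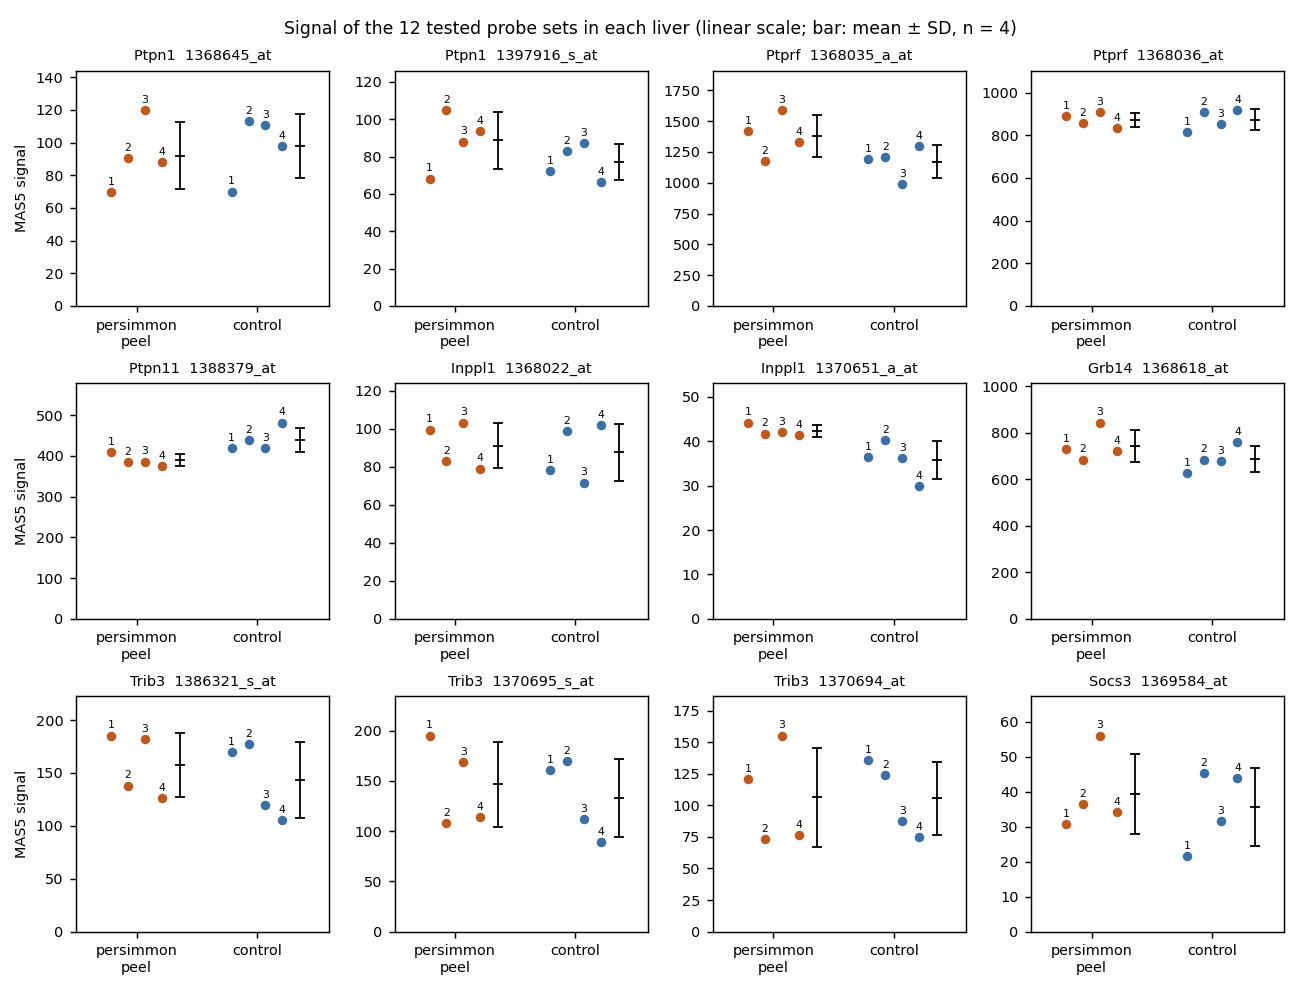
MAS5 signal (linear axis from 0) of the 12 tested probe sets in each liver, persimmon peel diet in orange and control diet in blue, with the liver's replicate number above each point and the mean ± SD (n = 4) as a bar. The diets lie apart only in Ptpn11 1388379_at, lower on the persimmon peel diet, and Inppl1 1370651_a_at, higher on it.

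Of the tyrosine phosphatases, Ptpn1 encodes PTP1B, which dephosphorylates the activated insulin receptor and its IRS adaptors. Its brighter set, 1368645_at, had signals of 69.9, 90.4, 120.0 and 88.0 in the persimmon peel livers and 70.0, 113, 111 and 97.7 in the control livers. The diets overlapped over nearly their whole range, and liver 1 was the lowest of each diet. The log2 fold change was -0.09 (SE 0.19, 95% interval -0.49 to 0.31, limma adjusted p = 0.833). The other set, 1397916_s_at, had 68.2, 105.0, 88.0 and 93.6 in the persimmon peel livers and 72.3, 83.0, 87.2 and 66.4 in the control livers, again with overlap. Its log2 fold change was 0.19 (SE 0.16, 95% interval -0.15 to 0.53, limma adjusted p = 0.541), of the opposite sign to that of the brighter set. The manufacturer's suffix s marks sets whose probes match several transcripts, which can be of other genes. The gap between the sets, dimmer minus brighter, was -0.04 ± 0.29 log2 units on the persimmon peel diet and -0.33 ± 0.26 on the control diet (SD, n = 4 each), a difference that did not pass (limma adjusted p = 0.305 over 2295 genes with several tested sets, of which 12.8% were called and 30.3% had an unadjusted p under 0.05).

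Ptprf encodes LAR, a receptor-type phosphatase that can act on the insulin receptor. Its set 1368035_a_at had signals of 1417, 1179, 1592 and 1332 in the persimmon peel livers and 1194, 1209, 988 and 1300.3 in the control livers. Persimmon peel livers 1, 3 and 4 were above every control liver, and liver 2 was below 3 of the 4 control livers. This was the set with the smallest p of the 12. The mean was 1379.8 ± 172 on the persimmon peel diet and 1173 ± 132 on the control diet (SD, n = 4 each), a log2 fold change of 0.23 (SE 0.11, 95% interval 0.0057 to 0.46, limma adjusted p = 0.241). The second set, 1368036_at, had 889, 856, 910.3 and 833 in the persimmon peel livers and 815, 907, 854 and 919 in the control livers. These values overlapped fully, the log2 fold change was -0.0022 (SE 0.08, adjusted p = 0.992), and the 95% interval allowed changes between 0.884-fold and 1.13-fold. The 2 sets of Ptprf thus had fold changes of different size, but the test of their gap between the diets did not pass (-0.24, SE 0.13, limma adjusted p = 0.234). Without persimmon peel livers 1 and 3, which had the lowest beta-actin middle to 3' ratios, the log2 fold change of 1368035_a_at was 0.10 (adjusted p = 0.753), and with that ratio as a covariate, a fit that separates ratio and diet poorly, it was -0.20 (adjusted p = 1). Livers 1 and 3 also had the highest signals of 1368035_a_at on the persimmon peel diet, so leaving them out had to lower its fold change.

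Genes whose profile over the 8 livers was most like that of Ptprf 1368035_a_at were sought. By the root mean square difference of centred log2 values over the 8 arrays, the nearest were Mrps15, a mitochondrial ribosomal protein, at 0.0437, Ost4, a subunit of the oligosaccharyltransferase, at 0.0446, and Sidt2, a lysosomal membrane protein, at 0.0553. Their log2 fold changes were 0.21, 0.17 and 0.23, and none of the 3 passed (limma adjusted p = 0.293, 0.381 and 0.217). The profiles span both diets, so fold changes close to that of the Ptprf set follow from the choice.

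Ptpn11 encodes SHP2, a phosphatase that docks on IRS proteins and has been described both as a brake on insulin signalling and as an activator of its growth branch. Its brighter set, 1388379_at, had signals of 409.8, 385, 386 and 375 in the persimmon peel livers and 419, 438, 418 and 481 in the control livers. All 4 persimmon peel livers were below all 4 control livers, by a small margin: the highest persimmon peel liver and the lowest control liver were 409.8 and 418. The mean was 389 ± 14.7 on the persimmon peel diet and 439 ± 29.6 on the control diet (SD, n = 4 each), a log2 fold change of -0.17 (SE 0.09, 95% interval -0.37 to 0.03, limma adjusted p = 0.324), so the difference did not pass. Of all tested sets, 10% lay apart in this direction. The other set, 1387668_at, was just below the limit, with a mean signal of 33.99. It had 30.3, 31.6, 30.8 and 36.7 in the persimmon peel livers and 28.1, 37.5, 37.4 and 41.7 in the control livers, which overlapped. In the fit with no filter its log2 fold change was -0.15 (SE 0.22, limma adjusted p = 0.822), of the same sign as the brighter set.

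Inppl1 encodes SHIP2, which removes a phosphate from the phosphoinositide that recruits AKT to the membrane. Its brighter set, 1368022_at, had signals of 99.5, 82.8, 103 and 79.0 in the persimmon peel livers and 78.4, 98.8, 71.6 and 102 in the control livers. Each diet held a pair of high and a pair of low livers and the diets overlapped, with a log2 fold change of 0.06 (SE 0.16, 95% interval -0.27 to 0.39, limma adjusted p = 0.864). Without persimmon peel livers 1 and 3 it was -0.10, a fall that follows from leaving out the high pair of that diet. The dimmer set, 1370651_a_at, had 44.2, 41.7, 42.0 and 41.3 in the persimmon peel livers and 36.3, 40.3, 36.2 and 29.9 in the control livers. Here all persimmon peel livers were above all control livers, but the margin was about 1 unit, at a level just above the limit of 34.4, and control liver 4 lay below that limit. Of all tested sets, 2.87% lay apart with the persimmon peel livers higher. The log2 fold change of 0.25 (SE 0.18, 95% interval -0.13 to 0.64, limma adjusted p = 0.464) did not pass. The gap between the sets, dimmer minus brighter, was -1.10 ± 0.17 on the persimmon peel diet and -1.29 ± 0.35 on the control diet (SD of log2 values, n = 4 each; limma adjusted p = 0.5).

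Grb10 and Grb14 encode adaptors that bind the activated insulin receptor and hold down its kinase. Grb14 had 1 set, 1368618_at, with signals of 729, 685, 843 and 721 in the persimmon peel livers and 626, 684, 677 and 761 in the control livers. The diets overlapped, with persimmon peel liver 3 the highest and control liver 1 the lowest of all. The mean was 744 ± 68.5 on the persimmon peel diet and 687 ± 55.6 on the control diet (SD, n = 4 each), a log2 fold change of 0.12 (SE 0.10, limma adjusted p = 0.543), and the 95% interval allowed changes between 0.94-fold and 1.25-fold. Without persimmon peel livers 1 and 3 the log2 fold change of Grb14 was 0.04, and without liver 3 alone 0.05. Livers 1 and 3 had the highest Grb14 signals of that diet, so leaving them out had to lower the value.

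All 3 sets of Grb10 were dim on every array. The brightest, 1397211_at, had signals of 28.5, 32.2, 32.9 and 27.2 in the persimmon peel livers and 26.6, 31.6, 16.1 and 32.8 in the control livers. These overlapped, with control liver 3 far below the rest, and the log2 fold change with no filter was 0.22 (SE 0.28, limma adjusted p = 0.787). The sets 1371517_at and 1394610_at lay between 1.34 and 17.3 units on the persimmon peel diet and between 1.25 and 15.0 on the control diet, where the highest liver of a diet could be up to 12.9-fold above the lowest. Their log2 fold changes had opposite signs, -0.43 (SE 0.72) and 0.67 (SE 0.83), and neither passed with no filter (limma adjusted p = 0.851 and 0.785), so no diet difference of Grb10 could be resolved at this signal.

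**Figure D2:**
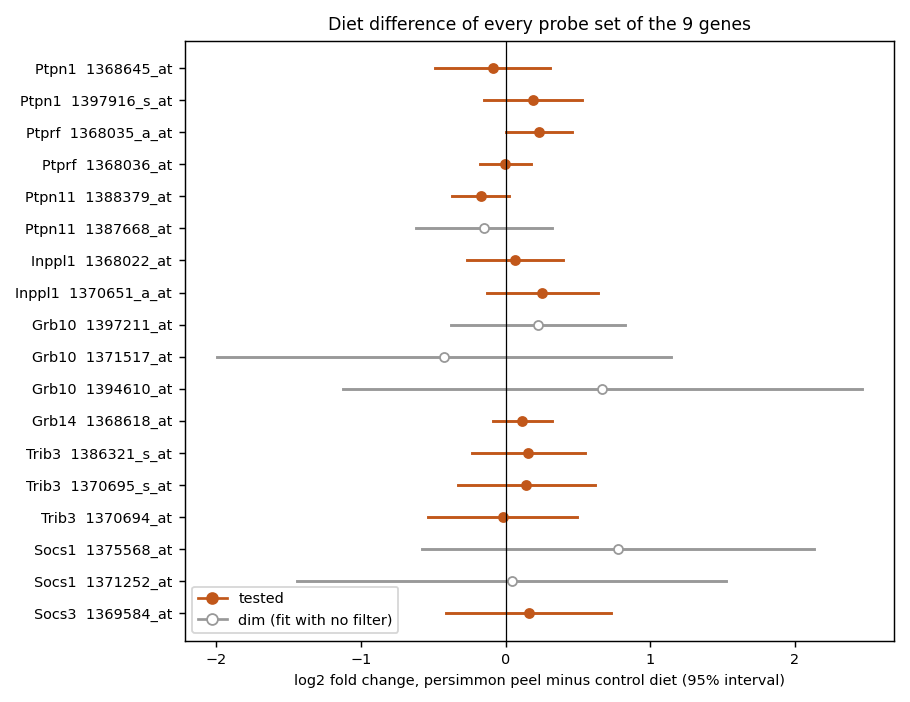
Log2 fold change (persimmon peel minus control diet) of all 18 probe sets of the 9 genes with 95% intervals, filled orange for the 12 tested sets and open grey for the 6 dim sets, which come from the fit with no filter. Tested sets lie between -0.17 and 0.25, only the interval of Ptprf 1368035_a_at stays above 0, and the intervals of the dim Grb10 and Socs1 sets are the widest.

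Trib3 encodes a pseudokinase that binds AKT and hinders its activation in liver, and its transcription is raised by ATF4 and CHOP under amino acid shortage or endoplasmic reticulum stress. It had 3 tested sets, of which 1370694_at and 1370695_s_at come from 1 source sequence in the annotation and are not independent. The sets 1386321_s_at and 1370695_s_at carry the suffix s, so their probes can match transcripts of other genes. The brightest, 1386321_s_at, had signals of 185, 138, 182 and 126 in the persimmon peel livers and 169.9, 177, 119.8 and 105 in the control livers. The set 1370695_s_at had 195, 108, 169 and 114 in the persimmon peel livers and 160.3, 169.7, 112 and 89.4 in the control livers. The set 1370694_at had 121, 73.3, 155 and 76.2 in the persimmon peel livers and 136, 124, 87.4 and 74.8 in the control livers. In all 3 sets the high livers were the same, 1 and 3 of the persimmon peel diet and 1 and 2 of the control diet, and the other livers of each diet were low. Of all tested sets, 4.27% had this same split of the livers, and among the other tested sets of the 9 genes only Inppl1 1370651_a_at had it.

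The livers of 1 diet varied more in Trib3 than the diets differed. The log2 fold changes of the 3 Trib3 sets, brightest first, were 0.16 (SE 0.18), 0.14 (SE 0.22) and -0.02 (SE 0.24), with limma adjusted p of 0.676, 0.766 and 0.977. The 95% interval of the brightest set allowed changes between 0.853-fold and 1.46-fold. The SD between livers of the same diet was 0.33, 0.43 and 0.47 log2 units, above that of 87.9%, 95.9% and 97.4% of all tested sets, while the median over all tested sets was 0.19. Persimmon peel livers 1 and 3 had beta-actin middle to 3' ratios of -1.18 and -1.09 and livers 2 and 4 of -0.92 and -1.06, whereas the control livers had ratios between -0.78 and -0.75. The highest over the lowest liver of the 3 sets was 1.47, 1.81 and 2.12 on the persimmon peel diet and 1.68, 1.90 and 1.82 on the control diet. Without persimmon peel livers 1 and 3 the log2 fold changes were -0.08, -0.21 and -0.46, none of them called (limma adjusted p = 0.908, 0.746 and 0.414). Livers 1 and 3 were the high livers of that diet in all 3 sets, so leaving them out had to lower these values.

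**Figure D3:**
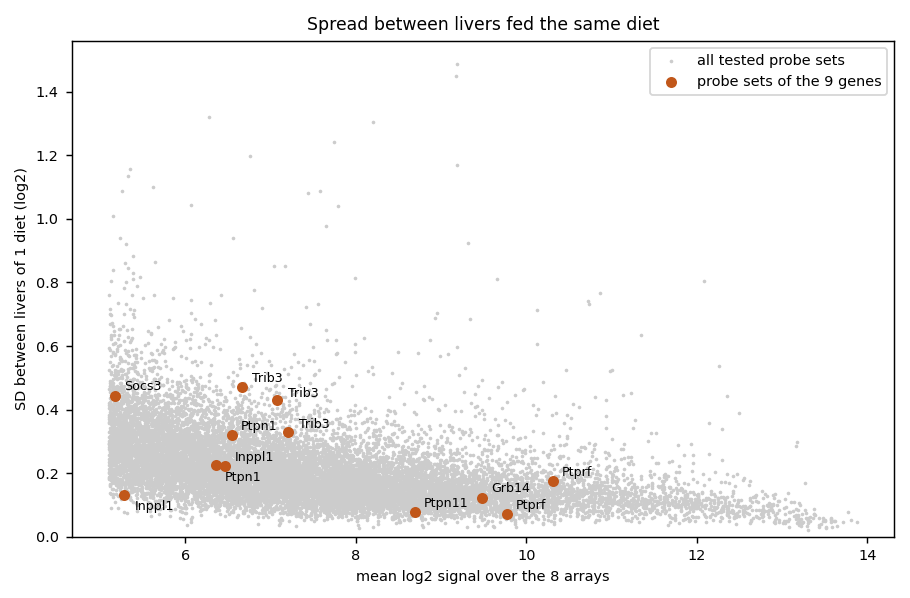
Residual SD of log2 signal between livers of the same diet (vertical axis) against mean log2 signal over the 8 arrays (horizontal axis), grey for all 15521 tested probe sets and orange for the 12 sets of the 9 genes. The 3 Trib3 sets lie at 0.33 to 0.47 and Socs3 at 0.44, and Ptpn11 and the second Ptprf set lie at 0.08 and 0.07.

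Other genes on the ATF4 and CHOP route were set beside Trib3. Of 24 listed genes 19 were tested in their brightest set, 0 were called in either direction, and the median log2 fold change was -0.02, beside 0.01 over the brightest sets of all 9174 tested genes, of which 1.93% were called lower and 0.469% higher. The 2 genes with the smallest p were Ppp1r15a, which helps to end the stress response of translation, and Cebpb, a transcription factor. Ppp1r15a averaged 164 ± 19.98 on the persimmon peel diet and 125 ± 7.27 on the control diet (SD, n = 4 each), with no overlap (log2 fold change 0.39, limma adjusted p = 0.0795). Such a gap, with the persimmon peel livers higher, was present in 2.87% of all tested sets. Cebpb averaged 1773 ± 45.0 on the persimmon peel diet and 2004 ± 142 on the control diet (SD, n = 4 each; log2 fold change -0.17, adjusted p = 0.209). Chac1, an ATF4 target that degrades glutathione and was named after its values were seen, had 95.9, 44.7, 91.4 and 55.6 in the persimmon peel livers and 93.6, 64.3, 40.0 and 39.8 in the control livers. Its high livers were those of Trib3. Atf4, Psat1 and Ddit3 were also named after their values were seen. Atf4 itself had 1739, 1299, 1505 and 1283 in the persimmon peel livers and 1539, 1607, 1475 and 1438 in the control livers, with livers 1 and 3 and livers 1 and 2 again the higher pairs. Psat1, an enzyme of serine synthesis, was the only other of the 19 genes with this split. Ddit3, which encodes CHOP, had 137, 116, 148 and 112 in the persimmon peel livers and 149.6, 146, 123 and 215 in the control livers. It followed this order on the persimmon peel diet but not on the control diet, where liver 4 was the highest. Chac1, Atf4 and Psat1 were thus the only ones of the 19 tested genes of this route with the split, beside 4.27% of all tested sets. Whether the split was more frequent on this route was not tested. Among the other lists, the brightest sets of Foxo3, Inpp5k and Ppp2r1a had it too, all named here after their values were seen.

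Socs1 and Socs3 are induced by cytokines through STAT factors and feed back on both cytokine and insulin receptors. Socs3 was tested in 1 set, 1369584_at, whose mean signal of 36.2 was just above the limit of 34.4. It had 30.7, 36.5, 56.1 and 34.1 in the persimmon peel livers and 21.7, 45.4, 31.5 and 44.0 in the control livers. The diets overlapped, and the extremes were persimmon peel liver 3 and control liver 1. The log2 fold change was 0.16 (SE 0.27, limma adjusted p = 0.783), and the 95% interval allowed changes between 0.753-fold and 1.66-fold. Without persimmon peel liver 3 the log2 fold change of Socs3 was -0.02, and without control liver 1 it was -0.06. The summed signal of the macrophage markers, livers 1 to 4, was 7645, 7292, 11510 and 7138 in the persimmon peel livers and 6406, 7435, 8318 and 7559 in the control livers. The highest and the lowest liver were the same as for Socs3, but the others did not follow its order: control liver 3 had the second highest sum and the third lowest Socs3 signal. The part of these markers in the Socs3 values was not tested.

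Both sets of Socs1 were dim on all 8 arrays. The set 1375568_at had signals of 3.60, 8.15, 4.54 and 5.51 in the persimmon peel livers and 1.42, 6.12, 4.41 and 2.23 in the control livers. The set 1371252_at had 1.52, 3.97, 3.67 and 1.12 in the persimmon peel livers and 1.63, 1.36, 2.80 and 3.57 in the control livers. Both overlapped between the diets, and with no filter the log2 fold changes of 0.78 (SE 0.63) and 0.04 (SE 0.68) did not pass (limma adjusted p = 0.644 and 0.988). Signals of this size leave no basis for a diet difference of Socs1 in either direction.

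Of the other SOCS genes, 4 of 6 were tested and 0 were called, with a median log2 fold change of -0.08. Socs6 averaged 251 ± 8.21 on the persimmon peel diet and 284 ± 14.3 on the control diet (SD, n = 4 each), with no overlap (log2 fold change -0.18, limma adjusted p = 0.331). Such a gap, with the persimmon peel livers lower, was present in 10% of all tested sets. Socs5 followed at -0.15 (limma adjusted p = 0.474). Cish, a target of growth hormone signalling named after its values were seen, had 79.5, 31.2, 62.4 and 43.0 in the persimmon peel livers and 81.6, 48.2, 45.4 and 38.7 in the control livers. Both Cish and Socs6 had the same split of the livers as Trib3, as did 4.27% of all tested sets. In Socs6 the split was narrow. Persimmon peel livers 1 and 4 had 251.1 and 248.5, and control livers 1 and 4 had 287.9 and 277.4. Of the JAK and STAT genes upstream, 22 of 26 were tested in their brightest set, 0 were called, and the median log2 fold change was 0.01. The smallest p belonged to Pias1, a SUMO ligase, with 157 ± 3.38 on the persimmon peel diet and 127 ± 5.93 on the control diet (SD, n = 4 each; log2 fold change 0.31, limma adjusted p = 0.114), and to Ghr, the growth hormone receptor, at -0.20 (adjusted p = 0.116). Neither Pias1 nor Ghr overlapped between the diets.

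The chain that these brakes act on was examined in the same fit. Of 31 genes from the insulin receptor to AKT and its targets 27 were tested in their brightest set, 0 were called and the median log2 fold change was 0.05. The smallest p belonged to Foxo3, a transcription factor that AKT holds in the cytoplasm (-0.43, SE 0.15, limma adjusted p = 0.123), and Irs2, a main IRS protein of liver (-0.39, SE 0.16, adjusted p = 0.188). Irs2 averaged 138 ± 28.5 on the persimmon peel diet and 180 ± 29.3 on the control diet (SD, n = 4 each), and the diets overlapped. Of 34 further genes that can restrain the chain 27 were tested, 0 were called and the median was 0.03. There the smallest p belonged to Mapk9, the stress kinase JNK2, which can phosphorylate IRS proteins on inhibitory sites (178 ± 21.2 on the persimmon peel diet and 230 ± 18.1 on the control diet, SD, n = 4 each; -0.38, limma adjusted p = 0.0845), and to Ptprj, a receptor-type phosphatase (690.3 ± 43.2 on the persimmon peel diet and 583 ± 28.0 on the control diet, SD, n = 4 each; 0.24, adjusted p = 0.134). In both Mapk9 and Ptprj the diets did not overlap. Over all 5 lists 0 of 99 tested genes were called, while 1.93% of all 9174 genes were called lower and 0.469% higher. An unadjusted p under 0.05 was found for 16.2% of the 99 genes, against 16.3% of all 9174.

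**Figure D4:**
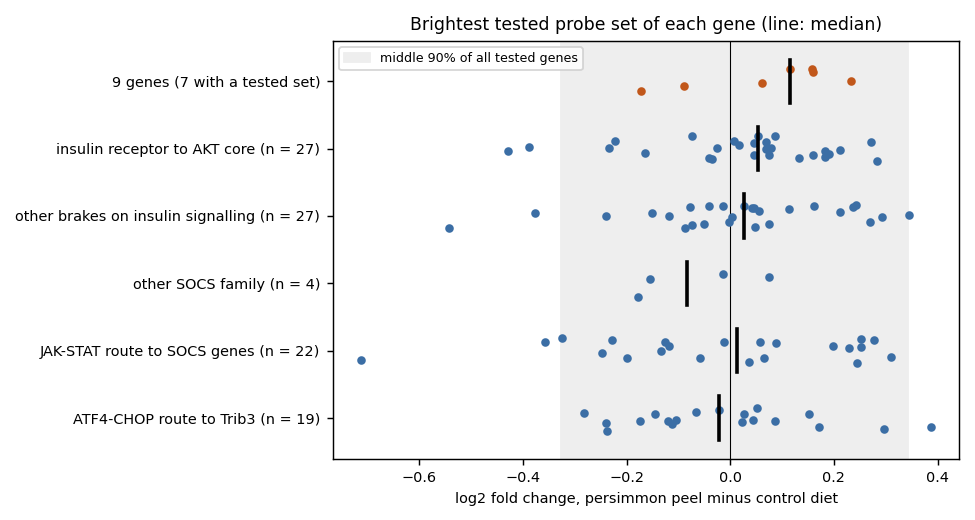
Log2 fold change (persimmon peel minus control diet) of the brightest tested probe set of each gene, orange for the 7 of the 9 brakes with a tested set and blue for the 5 lists around them, with a black line at each median and grey shading over the middle 90% of all 9174 tested genes (-0.33 to 0.34). All 7 brakes lie within the shading, 8 of the 99 list genes lie outside it, and every median is within 0.12 of 0.

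Calls in these lists appeared only in sets that were not the brightest of their gene. Of 45 such sets 9 were called lower and 0 higher, or 20% lower, while 13.8% of the 2981 such sets of all genes were called lower. They belonged to Ghr, Jak1, Il6st, Ifnar1, Mapk9, Pik3ca, Rps6kb1, Ppp2r1a and Cebpg, named after their values were seen. The dimmer set of Mapk9 had 125 ± 33.3 on the persimmon peel diet and 234 ± 26.5 on the control diet (SD, n = 4 each), a log2 fold change of -0.93 (limma adjusted p = 0.0052). That of Rps6kb1, the S6 kinase that feeds back on IRS proteins, had 67.4 ± 3.87 on the persimmon peel diet and 115 ± 13.6 on the control diet (SD, n = 4 each; -0.77, adjusted p = 0.00554), whereas its brightest set had a log2 fold change of 0.07 (adjusted p = 0.776). Among the 9 brakes, the 5 tested sets that were not the brightest of their gene, those of Ptpn1, Ptprf and Inppl1 and 2 of Trib3, gave 0 calls.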

How the data were processed

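Liver RNA of 8 rats was hybridised to 1-colour Affymetrix arrays, 1 per rat and 4 per diet, and groups were taken from the labels. The authors deposited intensity values on a linear scale, made with MAS5 per the submitters' processing notes; no version, scaling target or detection call is given in the sources used here. All 8 value columns were used. Symbols came from the platform annotation (20826 probe sets with 1 symbol, 436 with several, 9780 with none) and were updated by gene number through RefSeq for 20758; the members were found by the annotation's own symbol. The log2 of each value was taken without a pseudocount. The array medians spanned 0.24 log2 units, under the limit of 0.5 for centring. The upper 50% of probe sets by mean log2 signal (15521) were tested with limma 3.58.1 (R 4.3.3), using lmFit and then eBayes with a trend on mean intensity (two-sided), adjusted by Benjamini-Hochberg over all of them, and called at an adjusted p under 0.05; dim sets were read from the same fit on all 31042 sets. The number of arrays limits the precision. Intervals are 95% moderated intervals of the log2 fold change. The dimmest minus the brightest tested set of a gene was fitted the same way over 2295 genes. The fit was also run on simulated data with independent normal noise for each probe set and array. These data held no RNA integrity difference between the diets, so they cannot show how the fit behaves under one. No pair of arrays was identical. The labels number the livers, which were taken as separate rats.

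Named are all 9 members, called genes of the 5 lists or otherwise the 2 with the smallest p of each, and the 3 genes nearest in profile to the member set with the smallest p; other genes are said to have been named after their values were seen. The members and lists were chosen with earlier results of these data known. The alternatives are given with their effect in the closing section. The labels do not say that replicate numbers pair the rats, and the main fit did not pair them. Same-numbered livers had deviations that correlated between -0.0846 and 0.0539, and differently numbered livers between -0.136 and 0.132. These correlations cannot show whether rats were matched.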

Additional observations from a re-analysis of the deposited data

How the results depend on the processing

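In all 19 other settings run on them, 0 member probe sets were called; the nearest was Ptprf 1368035_a_at under quantile normalization (log2 fold change 0.29, limma adjusted p = 0.0502). Of 222 values of member sets in other settings 196 kept their sign. Changed signs were, with the beta-actin ratio as a covariate, Ptpn1 1368645_at (0.205), Ptprf 1368035_a_at (-0.196), Inppl1 1368022_at (-0.378), Grb14 (-0.0743), Trib3 1386321_s_at (-0.348) and 1370695_s_at (-0.826); without persimmon peel arrays 1 and 3, Inppl1 1368022_at (-0.100), Trib3 1386321_s_at (-0.0815) and 1370695_s_at (-0.213); and under quantile normalization Ptprf 1368036_at (0.053) and Trib3 1370694_at (0.00277). Persimmon peel arrays 1 and 3 had the highest signals of their diet in Inppl1 1368022_at and the Trib3 sets. Leaving them out therefore had to lower those values. With each array left out in turn, values ran from -0.243 to 0.0335 for Ptpn1 1368645_at, 0.104 to 0.312 for Ptpn1 1397916_s_at, 0.153 to 0.306 for Ptprf 1368035_a_at, -0.0353 to 0.0228 for Ptprf 1368036_at, -0.199 to -0.128 for Ptpn11 1388379_at, -0.0299 to 0.140 for Inppl1 1368022_at, 0.171 to 0.314 for Inppl1 1370651_a_at, 0.054 to 0.166 for Grb14, 0.0214 (without control replicate 4) to 0.272 (without control replicate 2) for Trib3 1386321_s_at, -0.0326 to 0.276 for Trib3 1370695_s_at, -0.225 to 0.135 for Trib3 1370694_at and -0.0581 to 0.297 for Socs3. Lower probe sets of the whole array numbered 703, and 441 with no filter, 75 without persimmon peel arrays 1 and 3, 0 with the covariate, and 295 to 942 with 1 array left out (403 without control replicate 1, 295 without control replicate 4, 336 and 453 without persimmon peel replicates 1 and 4). Higher sets numbered 66, and 271 under quantile normalization, 26 with no filter, 41 in the upper 30% by signal, 33 without the intensity trend, 1 without persimmon peel arrays 1 and 3, 0 with the covariate, and 12 to 267 with 1 array left out (13, 21 and 14 without control replicates 1, 3 and 4, and 12, 267, 15 and 28 without persimmon peel replicates 1 to 4). Genes of the 5 lists, 0 as reported, were called higher under quantile normalization (3: Ppp1r15a, Ptprj and Stat2), lower as the mean of a gene's sets (4: Cebpg, Ghr, Jak1 and Mapk9), and without persimmon peel diet replicate 2 as 1 higher (Tns2) and 1 lower (Trib1), with 0 of either in the other 7 fits. The cause of these shifts was not tested. With the replicate block, whose numbers are not said to pair the rats, 596 sets were lower and 60 higher. Signal limits the 6 dim sets and the pair just above the limit, Socs3 and Inppl1 1370651_a_at.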
